A study of Mus musculus with 16 samples.

Results

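Mitosis and cell division genes encode the machinery with which a cell condenses its chromosomes, builds the spindle, separates the sister chromatids and divides its cytoplasm. A list of 40 such genes was followed, of which 39 were measured among the 19505 genes with a symbol on the arrays, each by 1 transcript cluster. *Ccnb1*, the gene of cyclin B1, was not analysed here. RNA from mouse sciatic nerve was hybridized to 16 Clariom S arrays, 1 sample per array and 4 arrays in each of 4 groups. In *Becn1* cKO mice (*Becn1* fl/fl with a Cre transgene), the floxed gene of beclin 1, an autophagy protein, was deleted by a Cre that is active in the Schwann cell lineage. The arrays labelled wild-type are called control, and the study took as controls mice with 1 or 2 floxed alleles and no Cre. Both genotypes were sampled at 10 days (P10) and at 2 months. The labels number the replicates but do not say whether they are separate animals, nor give their sex, so p-values measure the spread between these samples. Precision is limited by having 4 arrays a group.

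In a dividing cell, Cdk1 bound to cyclin A or B starts mitosis, Plk1 and the Aurora kinases carry it forward, and the checkpoint kinases hold it until every kinetochore is attached to the spindle. The anaphase-promoting complex then marks the cyclins for destruction, and the midzone and cytokinesis proteins finish the division. In the developing nerve, Schwann cells multiply and then leave the cell cycle as they myelinate, and few cells of the healthy adult nerve divide. Most of these genes are transcribed late in the cell cycle, and in other cells NF-Y at CCAAT boxes, and B-Myb and FoxM1 bound to the MuvB complex at the cell cycle homology region (CHR), are known to drive them. In resting cells the DREAM complex, in which MuvB holds a retinoblastoma-related repressor in place of B-Myb, keeps them silent.

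The promoters of the list show these elements, which the arrays themselves do not measure. RefSeq windows of 300 bases (GRCm38.p6), from 250 before to 50 after the start of transcription, were at hand for 33 of the 39 genes and for 15691 measured genes in all. Only the first listed window of each gene was searched, so any other start of a gene was not looked at. Searched on both strands, CCAAT (read as ATTGG on the other strand) was in 25 of the 33 windows (75.8%) against 38.8% of all windows. At least 2 of them were in 16 (48.5%) against 13.2%. The CHR was searched with the usual letters TTTGAA, which the other strand shows as TTCAAA, and with the variant form TTCGAA. It was in 28 windows (84.8%) against 17.4%, and the usual form alone was in 27 (81.8%) against 15.8%. Matches were counted whether or not they overlapped each other, and 24 windows (72.7%) held both, against 7.3% of all windows. E2F sites were searched with the letters TTCCCGC and with the second form TTTGGCGC, and were in 2 windows (6.06%) against 6.89%. A match is a string of letters and not a measured binding site. Below are 150 bases around the start of 6 genes and upstream of the start of *Mki67*, chosen because the results turn on these genes or because their motifs stand close together, with CCAAT, CHR and their reverse complements in capitals.

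Cdk1 (chr10:69352883-69353032, minus strand, 120 bases before the start to 30 after): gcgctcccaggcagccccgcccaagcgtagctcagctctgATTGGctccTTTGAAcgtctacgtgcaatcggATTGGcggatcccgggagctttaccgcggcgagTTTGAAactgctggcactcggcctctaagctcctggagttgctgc
Bub1 (chr2:127831830-127831979, minus strand, the same span): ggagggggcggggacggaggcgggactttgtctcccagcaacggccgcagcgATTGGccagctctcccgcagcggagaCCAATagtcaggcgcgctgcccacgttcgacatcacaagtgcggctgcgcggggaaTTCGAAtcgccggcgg
Ccnb2 (chr9:70421525-70421674, minus strand, the same span): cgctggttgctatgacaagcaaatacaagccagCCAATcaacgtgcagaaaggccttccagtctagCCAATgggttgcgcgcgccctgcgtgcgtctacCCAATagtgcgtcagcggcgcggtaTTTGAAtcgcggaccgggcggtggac
Kif23 (chr9:61946770-61946919, minus strand, the same span): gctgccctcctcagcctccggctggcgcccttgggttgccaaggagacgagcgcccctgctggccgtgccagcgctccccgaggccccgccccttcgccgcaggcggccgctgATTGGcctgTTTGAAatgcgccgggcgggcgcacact
Top2a (chr11:99024160-99024309, minus strand, the same span): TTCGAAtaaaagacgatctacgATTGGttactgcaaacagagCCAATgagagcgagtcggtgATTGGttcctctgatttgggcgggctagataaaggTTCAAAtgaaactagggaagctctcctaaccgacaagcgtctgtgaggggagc
Ube2c (chr2:164769809-164769958, plus strand, the same span): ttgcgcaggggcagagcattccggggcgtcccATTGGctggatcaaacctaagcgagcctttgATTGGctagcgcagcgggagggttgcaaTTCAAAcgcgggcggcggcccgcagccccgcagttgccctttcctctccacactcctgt
Mki67 (chr7:135716430-135716579, minus strand, 200 to 51 bases before the start): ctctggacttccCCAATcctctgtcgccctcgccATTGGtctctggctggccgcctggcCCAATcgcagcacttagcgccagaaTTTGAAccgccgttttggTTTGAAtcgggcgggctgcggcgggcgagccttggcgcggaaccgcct

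In the *Cdk1* window, the gene of the kinase that starts mitosis, CCAAT boxes begin 80 and 48 bases before the start, and CHR letters begin 71 and 15 bases before it. *Ccnb2*, the gene of cyclin B2, has CCAAT boxes 87, 54 and 21 bases before the start. Its CHR letters begin 167 bases before the start and at base 5 of the transcript. A CHR within 40 bases of the start was found in 26 of the 33 windows (78.8%) against 3.72% of all windows, and 2 CCAAT boxes 31 to 34 bases apart in 7 (21.2%) against 1.56%. Those 7 genes were *Aurka*, *Ccnb2*, *Cdca8*, *Cdk1*, *Hmmr*, *Spc25* and *Ube2c*. Both distances were chosen after the positions had been seen. The windows of *Birc5*, *Melk*, *Nuf2* and *Nusap1* held none of the letters for CCAAT or CHR, and that of *Cenpe* held CCAAT but no CHR. All 5 genes were called higher in cKO nerves at both ages. Their median log2 change in cKO against control nerves was 0.98 at P10 and 1.64 at 2 months, beside 1.04 and 1.37 for the 28 genes with a CHR.

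**Figure D1:**
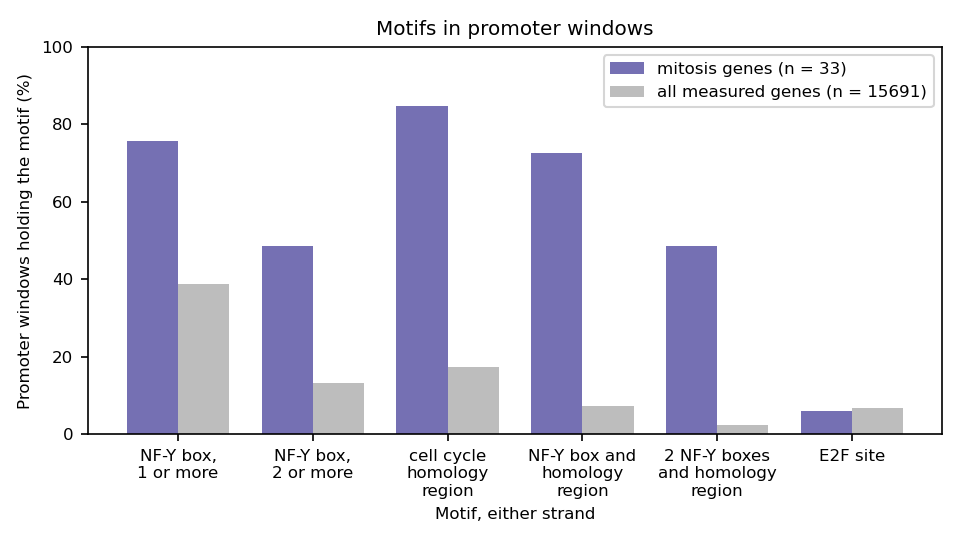
Share of 300-base promoter windows that hold each motif on either strand (y axis, percent), for the 33 mitosis genes with a window and for all 15691 measured genes with one; the NF-Y box is CCAAT. The homology region was in 84.8% of the mitosis windows and 17.4% of all windows, while E2F letters were about as frequent in both.

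The targeted gene was checked first. *Becn1* was lower in cKO than in control nerves at each age. At P10 its control arrays read 8.62, 8.57, 8.52 and 8.72 and the cKO arrays 8.21, 8.12, 8.30 and 8.39 (log2 change -0.35, adjusted p = 0.0397 from limma), and at 2 months the change was -0.26 (adjusted p = 0.0312). The groups did not overlap at either age. Pearson's r over all genes was 0.975 to 0.994 for 2 arrays of a group and 0.929 to 0.976 for arrays of different groups. Of 7 Schwann cell genes, the mean log2 value lay between 8.93 and 9.43 in all 16 arrays. Control P10 replicate 4 stood apart in its skeletal muscle genes, whose mean was 11.85 there against 7.01 to 9.71 in the other arrays of that group, and without it 38 of the 39 mitosis genes were still called higher in cKO nerves at P10. Whole nerve also holds cells without Cre, and in such bulk RNA more dividing cells and more transcript per dividing cell cannot be told apart.

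Across the 16 arrays the mitosis genes moved as a block. Their level in an array, taken as the mean over the 39 genes of the log2 value less that gene's mean over all arrays, was 0.07 ± 0.21 (SD, n = 4) in control P10 nerves, 1.11 ± 0.14 in cKO P10 nerves, -1.31 ± 0.08 in control 2-month nerves and 0.13 ± 0.14 in cKO 2-month nerves. The cKO 2-month arrays, from -0.07 to 0.26, lay within the range of the control P10 arrays, -0.11 to 0.28, and above the control 2-month arrays, -1.39 to -1.24. Arrays of a group also moved together. In cKO 2-month nerves, replicate 1 had the lowest value for 32 of the 39 genes. In control P10 nerves, replicates 2 and 4 were lowest for 18 and 19 genes and replicate 3 was highest for 22, and in cKO P10 nerves replicate 1 was highest for 22. The 39 genes are thus not 39 separate measurements of an array.

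**Figure D2:**
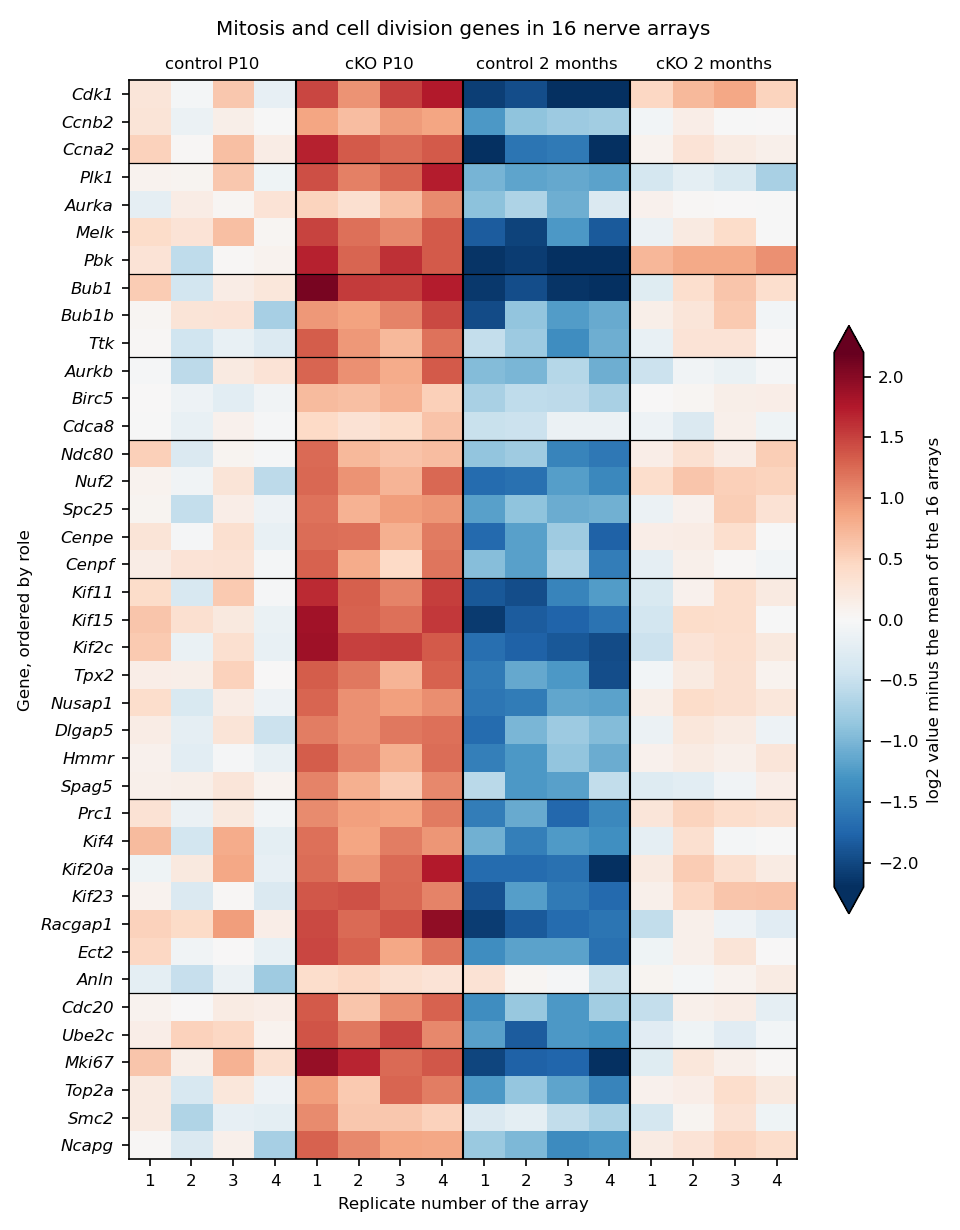
Each of the 39 genes (rows, by role, with lines between roles) in each of the 16 arrays (columns, by group and replicate number), coloured by its log2 value less the mean of its 16 values; values beyond the ends of the scale take the end colour. The cKO P10 arrays are red and the control 2-month arrays blue for nearly every gene, and the cKO 2-month arrays look like the control P10 arrays.

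The first comparison asked how these genes change as a normal nerve matures. In control nerves, 36 of the 39 were lower at 2 months than at P10 and none was higher, with a median log2 change of -1.39 (range -2.52 to 0.37), where 15.2% of all genes tested were called lower and the median of all genes was -0.02. Markers of other cells moved in the same comparison, with 7 of 7 endothelial genes (median -0.85), 6 of 8 pericyte and smooth muscle genes and 9 of 10 skeletal muscle genes (median -3.25) called lower and 6 of 6 perineurial genes called higher (median 0.84), and their part in the fall was not tested. The fall was greatest for *Mki67*, *Cdk1*, *Racgap1*, *Bub1*, *Pbk* and *Ccna2*. *Mki67*, which encodes the Ki-67 protein that coats mitotic chromosomes and is the usual marker of cycling cells, read 10.15, 9.66, 10.30 and 9.89 at P10 and 7.51, 7.75, 7.79 and 6.87 at 2 months. All P10 arrays were above all 2-month arrays, and the change was -2.52 (standard error 0.18, adjusted p = 2.87e-09 from limma). *Cdk1* fell by 2.36, *Racgap1*, the gene of a GTPase-activating protein of the central spindle, by 2.31, and *Bub1*, the gene of a checkpoint kinase, by 2.27. *Ccna2*, the gene of cyclin A2, and *Pbk*, that of a mitotic kinase, both fell by 2.26.

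All 3 genes that did not pass in this comparison had small changes. *Smc2*, the gene of a condensin subunit that also acts outside mitosis, read 7.88, 7.02, 7.50 and 7.47 at P10 and 7.37, 7.47, 7.13 and 6.98 at 2 months in control nerves, and the ranges overlapped (log2 change -0.23, adjusted p = 0.362). *Cdca8*, the gene of borealin, changed by -0.28 (adjusted p = 0.0943). *Anln*, the gene of anillin, a scaffold of the contractile ring that also serves non-dividing cells, read 6.88, 6.59, 6.96 and 6.30 at P10 and 7.41, 7.13, 7.06 and 6.60 at 2 months, the only one of the 39 with a positive estimate (0.37, adjusted p = 0.0771). Without control P10 replicate 3 or without control 2-month replicate 4, *Anln* was called higher at 2 months (adjusted p = 0.037 and 0.00937).

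In cKO nerves at P10, each of the 39 genes was higher than in control nerves of that age, and none overlapped between the groups. The median log2 change was 1.08, with a range from 0.47 to 1.58. Among all genes tested, 5.48% were called higher, 7.73% had every cKO array above every control array, and the median was 0.00. The spindle checkpoint kinases had the highest median of the roles (1.27) and the chromosomal passenger complex the lowest (0.77). *Bub1* led, from 6.98, 6.03, 6.60 and 6.67 in control arrays to 8.51, 7.97, 7.95 and 8.16 in cKO arrays. Its lowest cKO array was almost 1 log2 unit above its highest control array (change 1.58, standard error 0.19, adjusted p = 4.03e-05). *Pbk* followed with 1.51, *Kif23*, the gene of the midzone motor MKLP1, with 1.41, and *Kif2c*, that of a kinesin that takes microtubules apart at kinetochores, with 1.40.

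**Figure D3:**
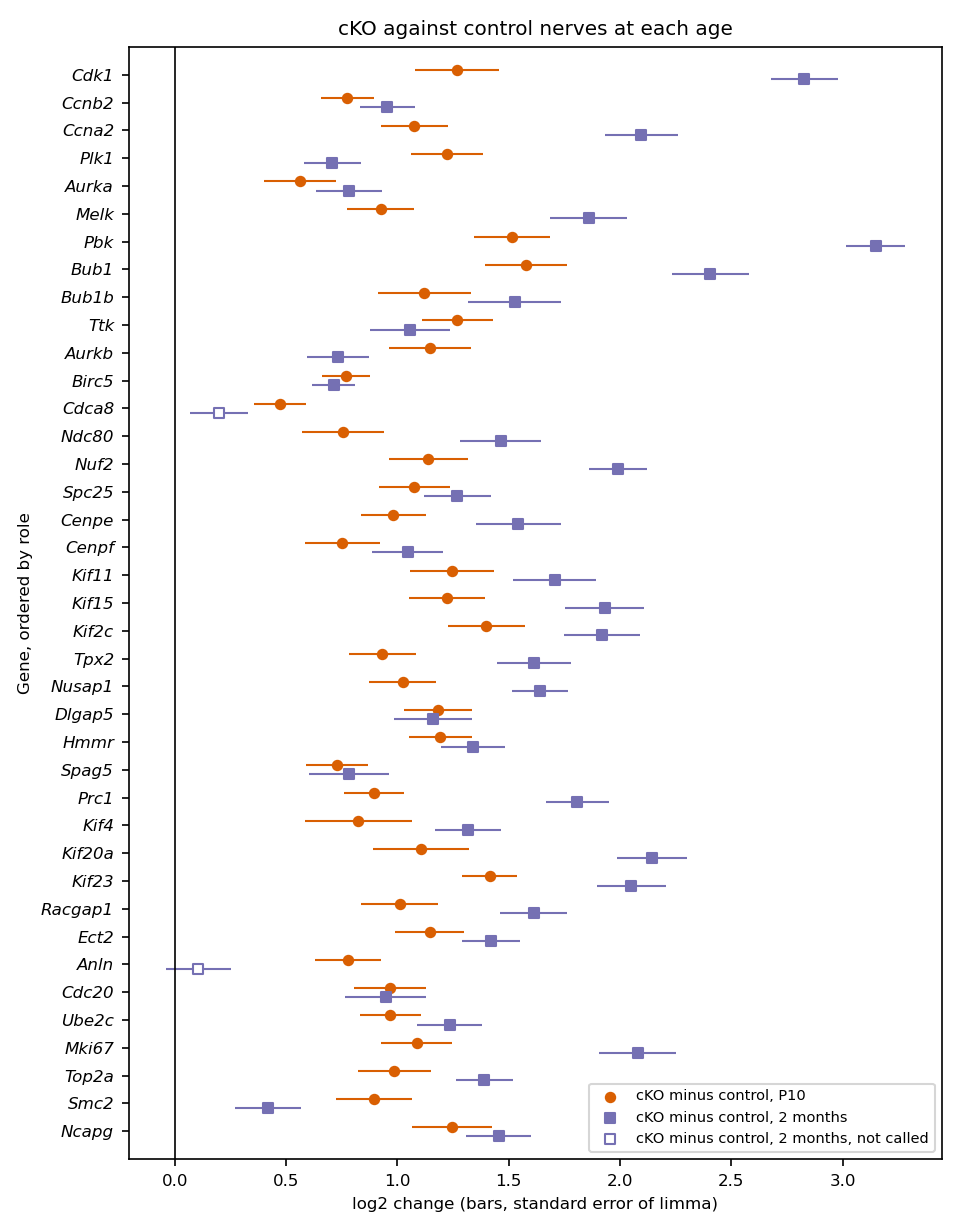
The log2 change in cKO against control nerves (x axis, bars are limma standard errors) for each gene at P10 (circles) and at 2 months (squares, open where not called). At P10 the changes lie between 0.47 and 1.58, and at 2 months they spread from 0.11 to 3.15.

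The smallest P10 changes were those of *Cdca8* (0.47), *Aurka* (0.56), *Spag5*, the gene of the spindle protein astrin (0.73), and *Cenpf* and *Ndc80* of the kinetochore (0.75 each). Leaving out control replicate 1 or 3 or cKO replicate 3 or 4 ended the call for *Aurka*, the gene of the centrosomal Aurora kinase (change 0.43 to 0.55, adjusted p 0.0743 to 0.0953). The same held for *Kif4*, the gene of a chromosome and midzone kinesin, on leaving out control replicate 2 or 4 or any 1 of the cKO arrays (adjusted p 0.0547 to 0.0957). Its control arrays spread from 5.30 to 6.52. The array also carries a cluster named for its pseudogene, *Kif4-ps*, which read 4.7 to 5.49 over the 16 arrays, and whether the probes of both share signal was not tested. Genes of blood vessels were lower in the same cKO nerves, with 7 of 7 endothelial and 6 of 8 pericyte and smooth muscle genes called lower at P10, where 7.44% of all genes were. Of the adipocyte genes 5 of 5 were lower and of the fibroblast genes 4 of 7. None of 11 macrophage and 8 T and NK cell genes was called, and of 7 Schwann cell genes 2 were higher and 1 lower. The part of a changed cell makeup in the mitosis genes was not tested.

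At 2 months the same list stood higher in cKO nerves by a median of 1.46, with 37 of the 39 genes called higher, none lower, and 36 without overlap between the groups. Of all genes tested, 18.5% were called higher at this age, 17.8% had every cKO array above every control array, and the median was -0.02. All 37 had also been called higher at P10, from other arrays. *Pbk* and *Cdk1* rose most. The *Pbk* arrays read 4.76, 4.81, 4.48 and 4.39 in control and 7.63, 7.75, 7.75 and 7.91 in cKO nerves, so that the cKO arrays lay close together nearly 3 log2 units above the controls. The change was 3.15 (8.87-fold, standard error 0.13, adjusted p = 4.41e-10 from limma). *Cdk1* read 3.74, 3.86, 3.30 and 3.51 in control and 6.26, 6.52, 6.65 and 6.29 in cKO nerves, a change of 2.83 (7.10-fold, adjusted p = 4.49e-09). The control values of both genes lay under 5.60, the mean level used as the limit for dim genes. Background was not measured, so both folds may be lower bounds. Control 2-month means lay under this level for other genes too, among them *Melk* (4.20), *Bub1* (4.29), *Kif4* (4.42), *Kif20a* (4.53), *Cdc20* (4.63), *Kif15* (4.93), *Kif2c* (5.04) and *Prc1* (5.08). Also under it were *Ndc80* (4.96), *Bub1b* (4.96), *Ttk* (5.005), *Kif11* (5.10), *Spc25* (5.12), *Ncapg* (5.12), *Hmmr* (5.24), *Spag5* (5.33), *Nuf2* (5.38), *Racgap1* (5.46) and *Tpx2* (5.57). For such genes the same limit holds for the 2-month change, the control fall, the interaction and the placing of adult cKO arrays.

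**Figure D4:**
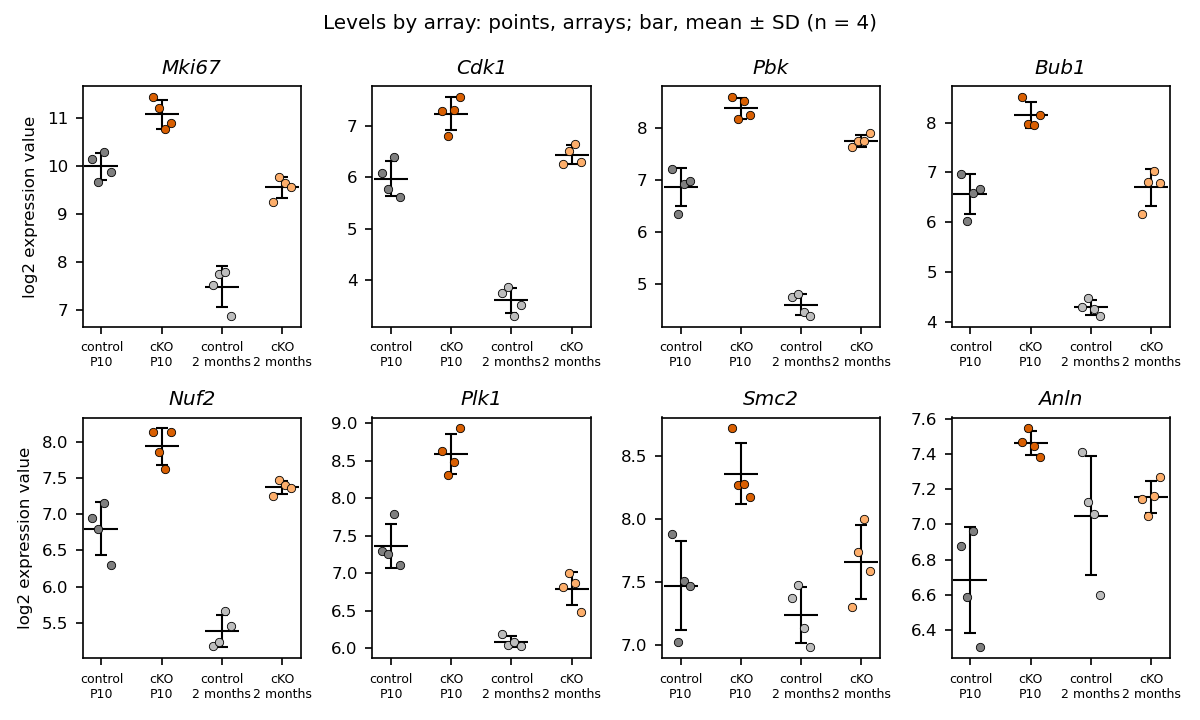
log2 values of 8 genes in each array (points) with the group mean and SD (n = 4 arrays) for control and cKO nerves at P10 and 2 months; the y axes differ and do not start at 0. *Mki67*, *Cdk1*, *Pbk*, *Bub1*, *Nuf2* and *Plk1* show the fall with age in controls and the higher cKO levels, while *Smc2* and *Anln* overlap between the 2-month groups.

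By role, the highest 2-month median was that of Cdk1 and its cyclins (2.10 over 3 genes), in which *Ccna2* was higher by 2.10 and *Ccnb2* by 0.95. Among the mitotic kinases, *Melk*, the gene of a kinase of dividing and stem cells, was higher by 1.86, against 0.78 for *Aurka* and 0.71 for *Plk1*, the gene of polo-like kinase 1. *Plk1* read 6.19, 6.04, 6.08 and 6.03 in control and 6.82, 7.0, 6.87 and 6.49 in cKO arrays, a small but clean step. The spindle checkpoint kinases were higher by 2.41 (*Bub1*), 1.53 (*Bub1b*, the gene of BubR1) and 1.05 (*Ttk*, the gene of Mps1). *Bub1* went from 4.31, 4.48, 4.26 and 4.13 to 6.16, 6.80, 7.04 and 6.80, and cKO replicate 1 was the low array here as for most of the list.

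The kinetochore genes were higher by 1.05 to 1.99, with *Nuf2* of the microtubule-binding Ndc80 complex at the top. It read 5.17, 5.23, 5.66 and 5.46 in control and 7.26, 7.48, 7.40 and 7.36 in cKO nerves. Its partner *Ndc80* was higher by 1.46, the motor gene *Cenpe* by 1.54, *Spc25*, a subunit gene of the same complex, by 1.27 and *Cenpf*, that of a large microtubule-binding protein, by 1.05. *Cenpf* arrays lay between 5.73 and 6.58 in control and between 7.05 and 7.36 in cKO nerves, without overlap. All 8 genes of spindle motors and microtubule-binding proteins were higher, by 0.78 (*Spag5*) to 1.93 (*Kif15*, the gene of a kinesin that helps to keep the spindle bipolar). In this role, *Nusap1*, whose protein bundles microtubules near chromosomes, had the smallest p (1.64, adjusted p = 1.32e-07), from 6.23, 6.27, 6.68 and 6.64 to 7.95, 8.22, 8.16 and 8.06. *Kif2c* was higher by 1.92, *Kif11*, the gene of the motor that pushes the spindle poles apart, by 1.71, *Tpx2*, that of an Aurora A activator, by 1.61, the spindle assembly gene *Hmmr* by 1.34 and *Dlgap5*, whose protein stabilizes spindle fibres, by 1.16.

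Of the midzone and cytokinesis genes, *Kif20a*, the gene of the kinesin MKLP2, was higher by 2.14, *Kif23* by 2.05, *Prc1*, which encodes the bundler of midzone microtubules, by 1.81, *Racgap1* by 1.61, *Ect2*, the gene of the RhoA exchange factor of the contractile ring, by 1.42 and *Kif4* by 1.32. The *Kif20a* arrays read 4.66, 4.66, 4.71 and 4.10 in control and 6.56, 6.91, 6.70 and 6.54 in cKO nerves. Both partners of the anaphase-promoting complex were higher, its activator *Cdc20* by 0.95 and *Ube2c*, the gene of its ubiquitin-conjugating enzyme, by 1.24. *Ube2c* went from 5.89, 5.25, 5.82 and 5.77 to 6.83, 6.98, 6.84 and 7.02, with no overlap. Of the genes of mitotic chromosome structure, *Mki67* was higher by 2.08, *Ncapg* of the condensin complex by 1.46 and *Top2a*, the gene of the topoisomerase that untangles sister chromatids, by 1.39. *Mki67* read 9.26, 9.78, 9.65 and 9.56 in cKO arrays, more than 1 log2 unit above its highest control array of 7.79, and *Top2a* read 6.55, 6.98, 6.66 and 6.37 in control and 7.92, 7.97, 8.20 and 8.04 in cKO nerves.

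The chromosomal passenger complex, which corrects faulty kinetochore attachments, had the lowest 2-month median (0.71). *Aurkb*, its kinase, read 5.87, 5.83, 6.20 and 5.76 in control and 6.36, 6.75, 6.69 and 6.81 in cKO arrays (change 0.73, adjusted p = 0.000737 from limma). *Birc5*, the gene of survivin, went from 7.04, 7.19, 7.16 and 7.03 to 7.75, 7.78, 7.87 and 7.88 (change 0.71, adjusted p = 3.72e-05). Both steps were small, and in neither gene did the groups overlap. *Cdca8*, their partner, read 6.75, 6.76, 7.10 and 7.11 in control and 7.12, 6.92, 7.35 and 7.14 in cKO arrays, which overlap, and did not pass (0.20, adjusted p = 0.271).

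*Anln* did not pass at 2 months either (0.11, adjusted p = 0.640), with cKO arrays from 7.05 to 7.27 inside the control range of 6.60 to 7.41. *Smc2* was called at the edge (0.42, adjusted p = 0.0424), but its cKO arrays, 7.30, 7.74, 8.0 and 7.59, overlapped the control arrays. Its call was lost without control replicate 3 or 4 or cKO replicate 2, 3 or 4 (change 0.30 to 0.44, adjusted p 0.0669 to 0.151). Markers of some immune cells rose in the same nerves. Of 11 macrophage genes 10 were called higher at 2 months, and their summed linear value was 7125 to 8593 in cKO 2-month arrays against 2522 to 3324 in control 2-month arrays, 2372 to 3268 in cKO P10 arrays and 1886 to 2428 in control P10 arrays. Of 8 T and NK cell genes 6 were higher, with sums of 638.1 to 743 against 389 to 448.2 in controls, and of 6 B and plasma cell genes 3 were higher, with a median change of 0.44. Their sum of 992.5 to 1866 against 126 to 273.6 rested on *Jchain*, the joining chain gene of plasma cells, with a mean log2 value of 10.37 against 5.21. Of 7 neutrophil genes 3 were higher, and their sums overlapped (358.4 to 439.4 in cKO, 233.5 to 419.5 in control 2-month arrays). The sums of 6 mast cell genes overlapped too (696.5 to 1122 in cKO, 775.2 to 1210 in control 2-month arrays). Other markers stood lower. The mean log2 value of 7 endothelial genes was 7.03 to 7.36 in cKO and 7.61 to 8.12 in control 2-month arrays. That of 7 fibroblast genes was 9.85 to 10.09 against 10.55 to 10.91, and that of 8 pericyte and smooth muscle genes 7.43 to 7.82 against 8.08 to 8.62. Of 7 Schwann cell genes 4 were higher and 2 lower. Which cells carried the mitosis transcripts was not tested.

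The fall with age was then followed in cKO nerves. From P10 to 2 months, 38 of the 39 genes were lower in cKO nerves, where 13.8% of all genes tested were called lower, with a median log2 change of -0.95 (range -1.79 to -0.30). *Anln* was the gene that did not pass (-0.30, adjusted p = 0.147). *Ndc80* passed narrowly (-0.52, adjusted p = 0.0483), and leaving out cKO P10 replicate 1, 2 or 4 or cKO 2-month replicate 1, 2 or 3 ended its call (adjusted p 0.0561 to 0.180). *Plk1* fell most in cKO nerves (-1.79), followed by *Racgap1* (-1.71), *Mki67* (-1.52), *Kif2c* (-1.45) and *Bub1* (-1.45). Of the 29 genes that fell by at least 1 in control nerves, the cKO fall was a median of 65.5% of the control fall on the log2 scale. It ranged from 27.7% for *Pbk* to 140% for *Plk1*, was under 50% for 6 genes and was over 100% for 3. Choosing genes by their control fall leaves out those whose control fall was small. Over the 36 genes called lower with age in both genotypes, the median was 70.8%. There it ran up to 147% for *Aurkb*, with 6 genes under 50% and 6 over 100%.

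Whether the cKO effect itself differed between the ages was tested with an interaction term over the 16 arrays. It passed upward for 10 of the 39 genes, where 7.69% of all genes tested did, and downward for 1, where 4.59% did. The median was 0.41 over the list and -0.01 over all genes. After a further quantile normalization the calls over all genes split 1193 upward to 1148 downward, against 1499 to 895 here, and the counts of the list were 8 and 1. The rise at 2 months exceeded that at P10 most for *Pbk* (by 1.63, standard error 0.22, adjusted p = 5.42e-05 from limma) and *Cdk1* (by 1.56, adjusted p = 0.000372). In *Kif20a*, *Ccna2*, *Mki67*, *Melk*, *Prc1* and *Nuf2* it did so by 1.04, 1.02, 0.99, 0.94, 0.91 and 0.85. Without cKO P10 replicate 2 the call of *Kif20a* was lost (adjusted p = 0.0538). *Kif23* and *Nusap1* passed narrowly (0.64 and 0.62, adjusted p = 0.04997 and 0.04994), and lost the call in 12 and 11 of the 16 fits without 1 array.

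*Anln* was the gene that passed downward (-0.67, adjusted p = 0.0450), since it was higher in cKO nerves at P10 alone, with cKO arrays of 7.47, 7.55, 7.45 and 7.38 against 6.88, 6.59, 6.96 and 6.30 in controls. Its call too was lost in 12 of the 16 fits without 1 array (adjusted p 0.0559 to 0.0907). Its count became 2 without control P10 replicate 3, where *Plk1* also passed downward (-0.66, adjusted p = 0.0348). The other 28 genes did not pass, among them *Bub1* (0.83, adjusted p = 0.0507), *Tpx2* (0.68, adjusted p = 0.0651) and, below 0, *Plk1* (-0.52), *Aurkb* (-0.41), *Cdca8* (-0.27), *Ttk* (-0.22) and *Smc2* (-0.47). For the genes that did not pass, equal effects at both ages were not shown.

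Adult cKO nerves were then set beside P10 control nerves, which share neither age nor genotype with them. Of the 39 genes, 31 did not pass, 5 were higher and 3 lower in adult cKO nerves, with a median log2 change of 0.06, where 18.3% of all genes tested were called higher and 17.4% lower. Higher were *Pbk* (0.89), *Kif23* (0.58), *Nuf2* (0.57), *Ncapg* (0.56) and *Anln* (0.47), and lower were *Racgap1* (-0.70), *Plk1* (-0.57) and *Ube2c* (-0.46). Without control P10 replicate 4, 3 were higher, since *Ncapg* and *Anln* were no longer called (adjusted p = 0.0658 and 0.0824). The call of *Ube2c* was lost without control P10 replicate 2 or 3 (adjusted p = 0.058 and 0.0501), and that of *Anln* also without cKO 2-month replicate 4 (adjusted p = 0.0558). *Cdk1* lay at the threshold (0.47, adjusted p = 0.0507) and was called higher without control P10 replicate 3 or cKO 2-month replicate 1, and also under 6 other settings (adjusted p 0.0354 to 0.0469), among them a fit of these 8 arrays alone and a further quantile normalization. *Mki67*, with a change of -0.44 (adjusted p = 0.0714), was called lower without control P10 replicate 2, with 8 arrays alone, after quantile normalization and with array weights (adjusted p 0.0253 to 0.0433), and *Nusap1* and *Spc25* were called higher without control P10 replicate 1 and cKO 2-month replicate 1. These values share the control P10 arrays with the fall in control nerves. The summed linear value of 7 endothelial genes was 1192 to 1545 in adult cKO and 3453 to 4000 in P10 control arrays. That of 11 macrophage genes was 7125 to 8593 against 1886 to 2428, and the part of cell makeup in this comparison was not tested.

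For the 29 genes with a control fall of at least 1, each adult cKO array was placed on a scale on which the mean of control 2-month nerves is 0% and that of control P10 nerves 100%. The median over genes was 102% (range 55.3% to 141%), and the medians of the 4 arrays ran from 88.6% to 111% (SD 10.1). All 29 genes lay above 50% and 15 above 100%. The genes were picked by their control fall, which also divides each placing and comes from the same arrays. Genes with a smaller fall were left out, so the range and these counts hold for the 29 alone. *Nuf2* was placed at 141% ± 6.55 (SD, n = 4), *Kif23* at 140% ± 16.5 and *Pbk* at 139% ± 5.02, and *Plk1* at 55.3% ± 17, *Racgap1* at 69.8% ± 11.6 and *Ube2c* at 72.9% ± 5.65. *Mki67* stood at 82.6% ± 8.76 and *Cdk1* at 120% ± 7.86. By role, the medians were 113% for the checkpoint kinases, 111% for the kinetochore, 106% for Cdk1 and its cyclins, 104% for the midzone, 100.5% for chromosome structure, 96.9% for the spindle proteins, 88.8% for the other kinases and 77.2% for the partners of the anaphase-promoting complex. The roles of checkpoint kinases, Cdk1 and its cyclins, chromosome structure and anaphase-promoting complex rested on 2 genes each, and the genes within a role spread widely. On the linear scale the median was 101.3%, the range 44.0% to 202%, and 28 of 29 genes stood above 50%. Each SD is over the 4 adult cKO arrays alone and leaves out the spread of the control arrays that set 0% and 100%. For *Nuf2* the control SD was 0.37 at P10 and 0.22 at 2 months, beside a control fall of 1.42 (log2). These percentages are a description without a test.

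**Figure D5:**
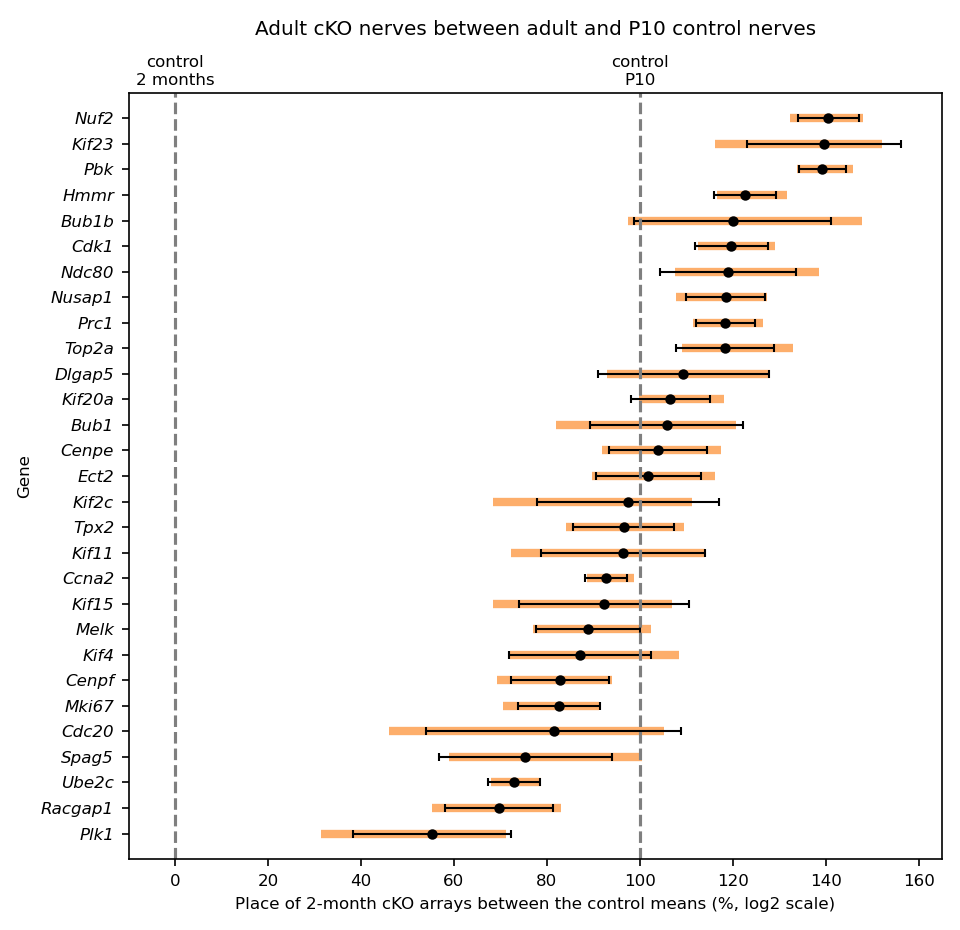
Place of the cKO 2-month arrays between the control 2-month mean (0%) and the control P10 mean (100%) on the log2 scale (x axis) for 29 genes (y axis, by mean). Points and bars are means and SD over the 4 cKO arrays, with both control means held fixed. The bands span the lowest to the highest array. The genes run from 55.3% for *Plk1* to 141% for *Nuf2*, with 15 of 29 above 100%.

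A wider set of 128 other mitosis genes, 124 of them measured, was tested beside the list. At P10, 58 (46.8%) were higher in cKO nerves and none lower (median 0.38). At 2 months 56 (45.2%) were higher and 8 (6.45%) lower (median 0.30), where 15.5% of all genes were lower. In control nerves 55 (44.4%) fell with age and 13 (10.5%) rose (median -0.26), where 13.8% of all genes rose. In cKO nerves 63 (50.8%) fell and 15 (12.1%) rose (median -0.39), where 16.1% of all genes rose. The checkpoint scaffold *Knl1* was higher by 1.26 and 1.81 at P10 and 2 months, the centrosomal kinase *Nek2* by 1.27 and 1.69, *Cenpi* of the inner kinetochore by 1.17 and 1.60, the abscission gene *Cep55* by 1.30 and 1.52, the spindle-pole gene *Aspm* by 0.95 and 1.42 and *Ncaph* of condensin by 1.10 and 1.31. *Sgo1*, the gene of the protector of cohesin at centromeres, was higher by 1.02 and 1.20, and *Mastl*, which encodes the Greatwall kinase, by 1.06 and 1.38.

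Of 11 measured genes of MuvB, DREAM and related transcription factors, 3 (27.3%) were higher in cKO nerves at P10, where 5.48% of all genes were. At 2 months 4 (36.4%) were higher and 1 (9.09%) lower, where 18.5% and 15.5% of all genes were. *Mybl2*, the gene of B-Myb, was higher by 0.77 at P10, and *Rbl1*, that of the p107 repressor, by 0.97 at P10 and 1.07 at 2 months. *Lin9* of MuvB was higher by 0.79 at 2 months, and *Lin52* of the same complex changed by -0.33. *Foxm1* was not analysed here. Of 17 subunits and regulators of the anaphase-promoting complex, whose core is also used by resting cells, 1 (5.88%) was higher at P10 (*Fbxo5*, 0.63, its inhibitor), and at 2 months 4 (23.5%) were higher and 1 lower. These shares lie near the 5.48% and 18.5% of all genes called higher.

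The 8 genes lower in cKO nerves at 2 months, a smaller share than among all genes, were the cohesin subunits *Stag2* (-0.87) and *Stag1* (-0.67), the cohesin regulator *Pds5b* (-0.42), *Fam83d* (-0.74), *Pdcd6ip* (-0.66), which serves membrane sorting as well as abscission, *Ska2* (-0.40), *Anapc10* (-0.34) and *Lin52* (-0.33). Cohesin also holds chromatin loops in cells that do not divide. *Stag1*, *Stag2*, *Lin52* and *Anapc10* had risen with age in control nerves, by 0.65, 0.92, 0.77 and 0.74. *Pttg1*, the gene of securin, which holds back the cut of cohesin, rose with age in both genotypes (0.65 in control, 0.90 in cKO nerves) although it was higher in cKO nerves at 2 months (0.84). In this set the interaction passed upward for 1 gene (*Cdc26*, 0.56), 0.81% of the set, and downward for 10 (8.06%), with a median of -0.03. Of all genes tested, 7.69% passed upward and 4.59% downward. In adult cKO against P10 control nerves, 32 genes of the set (25.8%) were higher and 17 (13.7%) lower, with a median of 0.07. Of all genes tested, 18.3% were higher and 17.4% lower there.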

How the data were processed

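The values are those the authors deposited: log2 expression values of 22206 transcript clusters, normalized by robust multiarray averaging of the Clariom S scans (Transcriptome Analysis Console 4.0.2.15). No further normalization was applied. Scans were not used here, so background could not be measured. Symbols came from the platform annotation (19572 clusters, 19505 genes, and for 55 genes on several clusters the one with the highest mean). The genome build of the array annotation is not given in the sources used here.

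Linear models used limma 3.58.1 under R 4.3.3 (lmFit, eBayes with an intensity trend). The 8 arrays of an age were fitted for cKO against control nerves, and all 16 with 4 group means for the changes with age, the interaction and adult cKO against P10 control nerves. The threshold for a call was an adjusted p (Benjamini-Hochberg, over all 19505 genes) under 0.05. Errors are SD over arrays or limma standard errors. The code was tested on simulated data.

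The 40 genes, their roles, the 128 other mitosis genes and the cell marker lists were chosen with earlier results of these data known. Values of every array were given for the gene with the smallest 2-month p in each role, for *Mki67*, *Top2a*, *Cdk1*, *Bub1*, *Aurkb*, *Plk1*, *Cenpf* and *Smc2*, and for genes not called where most were. From the other lists, up to 4 genes a list with the smallest p, and those called against the majority, were named. Alternatives were SAM, the test named in the study's methods (written anew here, with the 70 arrangements of 4 against 4 arrays), 5000 most variable clusters, a filter on dim genes, array centring, a second quantile normalization, weighting of the arrays, leaving the trend out, testing every cluster, another set of arrays in the fit, blocking on the replicate number, requiring a log2 change of 1 or more, and leaving out each array.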

Additional observations from a re-analysis of the deposited data

Results flagged for a closer look

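Of 156 sets of 4 arrays (39 genes in 4 groups), 2 held an array far from the other 3, and chance alone gives this in about 1 of 20 such sets. *Ndc80* read 7.37 in cKO P10 replicate 1, against 6.76 to 6.83 in the other arrays of that group. *Kif20a* read 4.10 in control 2-month replicate 4, against 4.66 to 4.71 in the others.

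The cKO change differed between the ages, by the interaction test, for 11 of the 39 genes. The 2-month change exceeded the P10 change by 1.63 for *Pbk*, 1.56 for *Cdk1*, 1.04 for *Kif20a*, 1.02 for *Ccna2*, 0.99 for *Mki67*, 0.94 for *Melk*, 0.91 for *Prc1*, 0.85 for *Nuf2*, 0.64 for *Kif23* and 0.62 for *Nusap1*. For *Anln* it was smaller (-0.67).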

How the results depend on the processing

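No call of a single gene changed direction under any alternative that was run. The median for adult cKO against P10 control nerves lay near 0 and changed sign among the fits without 1 array. With a log2 change of at least 1 required besides, 22 of the 39 genes were called higher in cKO nerves at P10, 15 lower with age in cKO nerves, 4 upward and 0 downward in the interaction, and 0 higher and 0 lower in adult cKO against P10 control nerves. Over all 19505 genes the counts under this rule were, in the same order, 228, 348, 379 and 202, and 784 and 816. The interaction called 0 genes downward also without the intensity trend, and on the 5000 most variable clusters, where *Anln* and *Cdca8* were not among the 37 genes tested. Leaving out 1 array at a time, the counts in cKO against control nerves were 37 to 38 higher at P10 (median 0.97 to 1.15) and 36 to 37 at 2 months (1.37 to 1.51). With age, 36 to 36 were lower and 0 to 1 higher in control nerves (-1.47 to -1.27), and 37 to 38 lower in cKO nerves (-1.02 to -0.88). The interaction passed for 7 to 13 genes upward and 0 to 2 downward (0.30 to 0.52), and adult cKO against P10 control nerves gave 3 to 7 higher and 2 to 3 lower (-0.04 to 0.14). The median place of adult cKO arrays ran from 96.7% to 106%. SAM called 39 genes higher at P10 and 37 at 2 months, and on the 5000 most variable clusters 36 and 37 of 37. Over all genes it called 846 and 3989 higher, and among the 5000 clusters 480 and 1849. Those clusters were picked by their variance over the same 16 arrays, to which the group differences add. *Smc2* at 2 months lost its call with all 16 arrays in 1 fit, with array centring, with quantile normalization and without the trend (adjusted p 0.0521 to 0.0698 from limma). The replicate numbers did not meet the condition for pairing, a correlation over 0.1 in every same-number pair (12 of 24 were, range -0.32 to 0.27). Of the best matches in another group, 24 of 48 had their own number, which only 1 of the 4 arrays in a group has. Whether arrays of the same number shared a step was not tested. With the replicate block, 37 genes were called at 2 months, and the interaction lost *Kif23* and *Nusap1* (adjusted p 0.0586 and 0.0632), leaving 8. The homology region was in 81.8% of windows when searched as TTTGAA alone. For other changed calls the cause was not tested.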
